A study of Mus musculus with 16 samples.

Results

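The 7 genes described here encode the parts of the renin-angiotensin-aldosterone system that a vessel wall can carry itself: the precursor angiotensinogen (Agt), angiotensin-converting enzyme (Ace), the type 1 receptors Agtr1a and Agtr1b, the receptor-associated protein Agtrap, the type 2 receptor Agtr2 and the mineralocorticoid receptor Nr3c2. They were taken by gene symbol, 7 of the 52636 genes in the count table, and all 7 had enough counts to be among the 17125 genes tested. The libraries were made from total RNA of whole descending thoracic aorta, the stretch of the main artery that passes down the chest. There were 4 groups of 4: C57BL/6J mice with hypertension induced by angiotensin II (AngII), C57BL/6J controls, 129S6/SvEvTac mice with AngII-induced hypertension, and 129S6/SvEvTac controls. Both are inbred strains with no engineered allele named in the labels, and AngII given to the animal acts on the same receptors that are measured here. The sources used here do not state the dose and duration of AngII, the age and sex of the mice, or whether each library is a separate animal, so p-values measure the spread between these libraries.

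Renin cuts angiotensinogen to angiotensin I, and ACE cuts angiotensin I to angiotensin II, the peptide that contracts vessels and raises blood pressure. Angiotensin II acts mainly through the type 1 receptor, which in rodents is encoded by a pair of genes, whereas the type 2 receptor is known for opposing many type 1 effects and is low in most adult tissues. Agtrap binds the tail of the type 1 receptor and promotes its internalisation, and Nr3c2 is the receptor through which aldosterone, released by the adrenal gland after angiotensin II, acts on transcription.

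Library totals ran from 42116120 to 61381134 counts in 15 libraries and reached 121573945 in 129S6/SvEvTac AngII 5. Smooth muscle markers were present in all libraries, but their score, the mean log2 CPM of 10 genes, was 8.92 to 9.91 in C57BL/6J AngII libraries, against 10.22 to 10.38 in C57BL/6J controls, and was 10.28 to 10.51 in 129S6/SvEvTac AngII libraries, against 10.26 to 10.44 in 129S6/SvEvTac controls. The macrophage score of 11 genes was 6.14 to 7.04 in C57BL/6J AngII libraries and 3.99 to 5.08 in the other libraries. The adipocyte score of 14 genes was 7.57 and 6.43 in C57BL/6J AngII 1 and 5, against 3.37 and 4.69 in C57BL/6J AngII 3 and 2. Of 8 adrenal cortex and kidney markers, 3 passed the filter on low counts. Cyp11b1 and Cyp11b2, the last enzymes of corticosterone and aldosterone synthesis, had no count in any library.

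The members spanned several orders of magnitude per exon length. In C57BL/6J AngII libraries Ace averaged 127 ± 33.2 CPM per kb and Agtrap 13 ± 2.06 CPM per kb (SD, n = 4), against 135.6 ± 10 and 15.4 ± 0.564 CPM per kb in C57BL/6J controls. In 129S6/SvEvTac AngII libraries Ace averaged 212.2 ± 38.5 CPM per kb and Agtrap 8.76 ± 0.451 CPM per kb, against 102.2 ± 9.9 and 9.73 ± 0.35 CPM per kb in 129S6/SvEvTac controls. Ace and Agtrap held the first and second place in all 4 groups, with no overlap between them or with the other members. Nr3c2 came next in 3 groups, and its libraries overlapped those of Agtr1a in every group except C57BL/6J controls. Agtr1a and Agtr1b did not overlap in either 129S6/SvEvTac group but overlapped in both C57BL/6J groups. Agt overlapped Agtr1b in every group except C57BL/6J controls. Agtr2 had the lowest means, at 0.142 CPM per kb in C57BL/6J AngII libraries, 0.0169 in C57BL/6J controls, 0.0884 in 129S6/SvEvTac AngII libraries and 0.0051 in 129S6/SvEvTac controls. Its libraries overlapped those of Agt in every group except 129S6/SvEvTac controls.

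**Figure D1:**
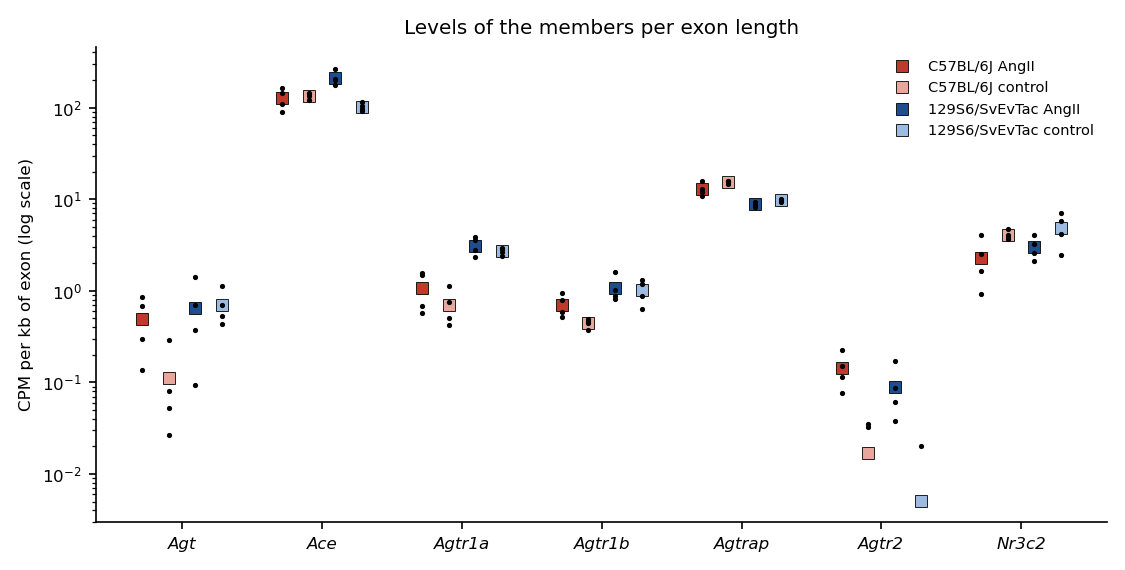
Level of each member per exon length (CPM per kb, log scale) in the 4 groups; squares are group means and black points are libraries, with libraries at 0 not drawn. Ace lies at or above 89.7 CPM per kb in all libraries and Agtr2 has the lowest group means.

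Promoter sequences were taken from RefSeq (GRCm38.p6), which held 6 of the 7 members. The 4 shown belong to members whose levels differed between strains or with AngII, so that their start regions can be compared. Each runs 5′ to 3′ on the gene's strand and ends before the first annotated exon. Capitals mark matches, on either strand, to GGGCGG (the GC box), TATAAA (the TATA box), CCAAT and CACGTG (the E-box). AGAACA, the steroid receptor half-site, was searched too and was in none of the 4. The windows are chr11:105967698-105967944 (plus strand) for Ace, chr3:20367178-20367427 (minus strand) for Agtr1b, chr4:148088065-148088314 (minus strand) for Agtrap and chrX:21484374-21484543 (plus strand) for Agtr2.
Ace: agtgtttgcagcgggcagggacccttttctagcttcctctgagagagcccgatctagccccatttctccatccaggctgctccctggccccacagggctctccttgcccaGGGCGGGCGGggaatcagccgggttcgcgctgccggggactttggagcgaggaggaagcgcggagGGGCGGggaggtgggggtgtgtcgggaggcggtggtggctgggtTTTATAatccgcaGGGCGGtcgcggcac
Agtr1b: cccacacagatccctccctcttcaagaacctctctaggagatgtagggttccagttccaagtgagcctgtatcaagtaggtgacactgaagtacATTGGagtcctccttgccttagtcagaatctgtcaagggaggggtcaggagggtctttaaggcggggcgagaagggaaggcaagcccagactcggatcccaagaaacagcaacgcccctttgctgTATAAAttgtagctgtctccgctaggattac
Agtrap: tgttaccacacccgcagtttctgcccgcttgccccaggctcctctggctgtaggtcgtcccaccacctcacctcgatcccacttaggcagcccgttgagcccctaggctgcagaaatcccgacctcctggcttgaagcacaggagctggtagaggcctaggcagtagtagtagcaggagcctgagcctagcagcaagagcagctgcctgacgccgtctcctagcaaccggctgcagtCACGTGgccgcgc
Agtr2: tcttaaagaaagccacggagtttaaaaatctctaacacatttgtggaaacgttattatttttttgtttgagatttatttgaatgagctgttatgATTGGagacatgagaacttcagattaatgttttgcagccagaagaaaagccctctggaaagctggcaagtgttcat
The Ace window held 4 GC boxes, a pair of them overlapping, and 1 TATAAA on the opposite strand. In the same stretch of the 32851 promoters in the table, 32.3% held a GC box and 12.3% a TATAAA. Agtr1b held 1 TATAAA (12.4% of promoters) and 1 CCAAT (33.8%). Agtrap held 1 CACGTG (6.0%) and neither a GC box nor a TATAAA. Agtr2 held 1 CCAAT (23.3% of promoters over its shorter window). These matches describe letters only and were not tested for binding.

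Ace, the enzyme that makes angiotensin II, doubled with AngII in 129S6/SvEvTac aortas and did not pass the test in C57BL/6J aortas. It lies at chr11:105967945-105989964 on the plus strand (ENSMUSG00000020681.14). For 129S6/SvEvTac the values were 1085, 1410, 1060 and 932 CPM in AngII libraries, against 607.3, 512.3, 554.1 and 487.7 CPM in controls. Every AngII library was above every control, and the fold was 2.08 (log2 fold change 1.05, SE 0.17, adjusted p = 9.02e-04, edgeR quasi-likelihood test). The C57BL/6J values were 474.1, 586.1, 867.8 and 757.9 CPM in AngII libraries, against 703.7, 647.9, 763.7 and 752.8 CPM in controls. The groups overlapped, and AngII libraries were spread more widely, with an SD of 175.3 against 52.97 CPM. The log2 fold change was -0.09 (95% interval -0.44 to 0.26, adjusted p = 0.6814). In bulk tissue, fewer cells of a type and less RNA per cell cannot be told apart.

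**Figure D2:**
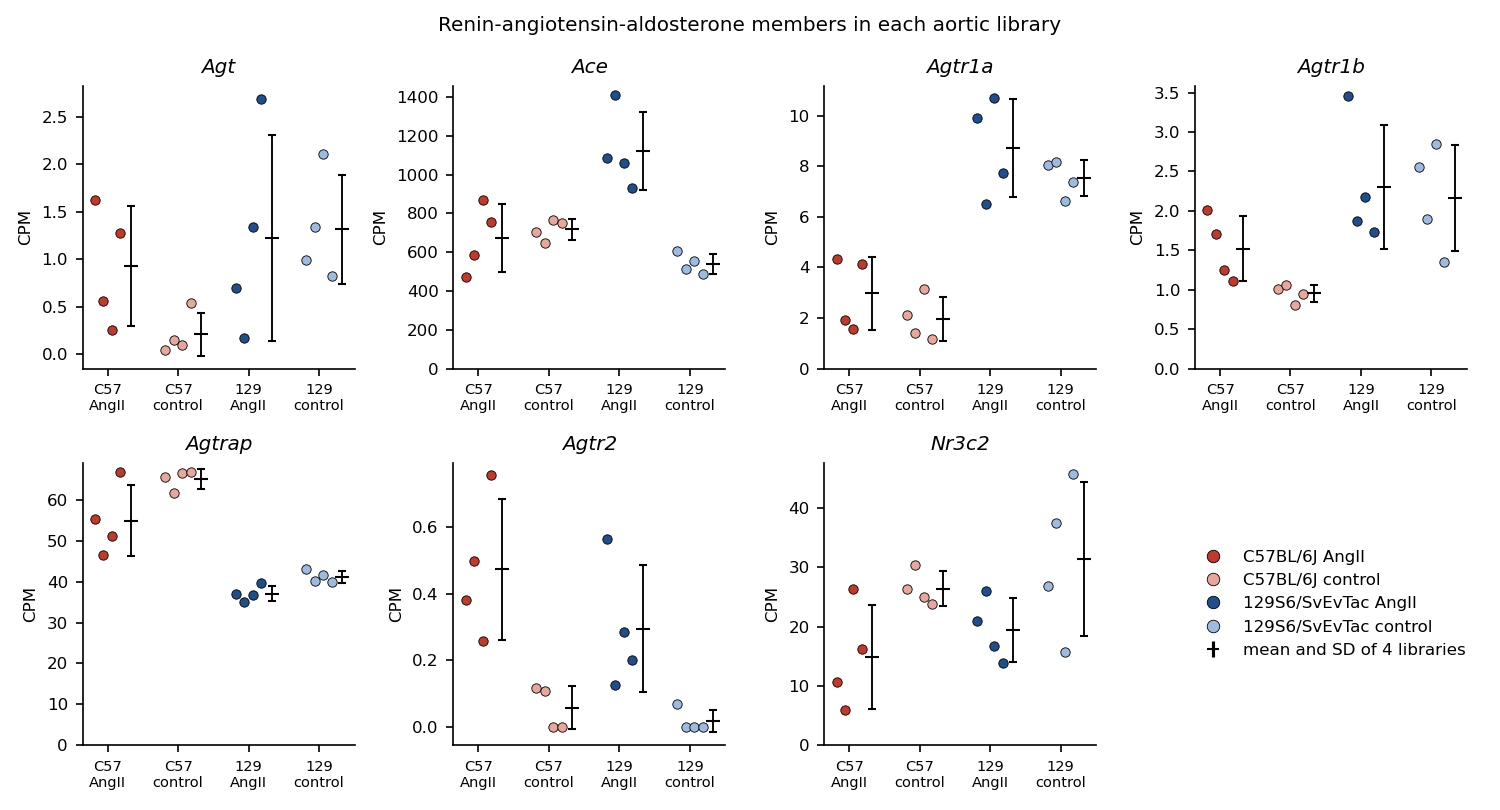
CPM of each member in each library (points) with the mean and SD of 4 libraries (bars), for C57BL/6J and 129S6/SvEvTac AngII and control aortas. Ace is highest in the 4 libraries of 129S6/SvEvTac AngII (932 to 1410 CPM), and Agtrap is higher in all C57BL/6J libraries (46.49 to 66.85 CPM) than in all 129S6/SvEvTac libraries.

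The AngII effects on Ace differed between the strains by -1.15 (C57BL/6J minus 129S6/SvEvTac, log2, SE 0.23, adjusted p = 0.008294). It was the single member called in that comparison, and was lower, where 9.96% of all tested genes were called, 5.34% higher and 4.62% lower. The strain means stood in opposite order with and without AngII. With AngII, Ace averaged 671.5 ± 175.3 CPM in C57BL/6J and 1122 ± 203.3 CPM in 129S6/SvEvTac (SD, n = 4 each), without overlap, and was lower in C57BL/6J by a log2 fold change of -0.74 (adjusted p = 0.003117). Among controls, it averaged 717 ± 52.97 CPM in C57BL/6J and 540.4 ± 52.35 CPM in 129S6/SvEvTac, also without overlap, but the log2 fold change of 0.41 did not pass (adjusted p = 0.1448). The calls for the AngII effect in 129S6/SvEvTac, the difference of effects and the strain difference with AngII held whichever library was left out.

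Within the C57BL/6J AngII group, Ace was lowest in library 1 (474.1 CPM), which had the lowest smooth muscle score (8.92), and highest in library 3 (867.8 CPM), which had the highest (9.91). With the smooth muscle score as a covariate, the difference of AngII effects on Ace was -0.33 (adjusted p = 0.6527) and the strain difference with AngII was 0.11 (adjusted p = 0.8627). The score separates C57BL/6J AngII from the other groups, so the covariate and the group cannot be told apart there. The AngII effect on Ace in 129S6/SvEvTac, where scores overlapped, was called in all 30 alternatives, with log2 fold changes of 0.89 to 1.15. The endothelial score, of 12 genes, was 5.06 to 6.05 in 129S6/SvEvTac AngII libraries, against 4.75 to 5.32 in 129S6/SvEvTac controls. The highest endothelial score fell in 129S6/SvEvTac AngII 2, the library with the most Ace (1410 CPM). With that score as a covariate in the edgeR fit, the 129S6/SvEvTac log2 fold change of Ace was 0.99 (adjusted p = 0.007914). The part of endothelial cells in the Ace result was not tested. Ace shares 5.6% of its exon length with the antisense gene Gm11651, which had no count in any library.

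**Figure D3:**
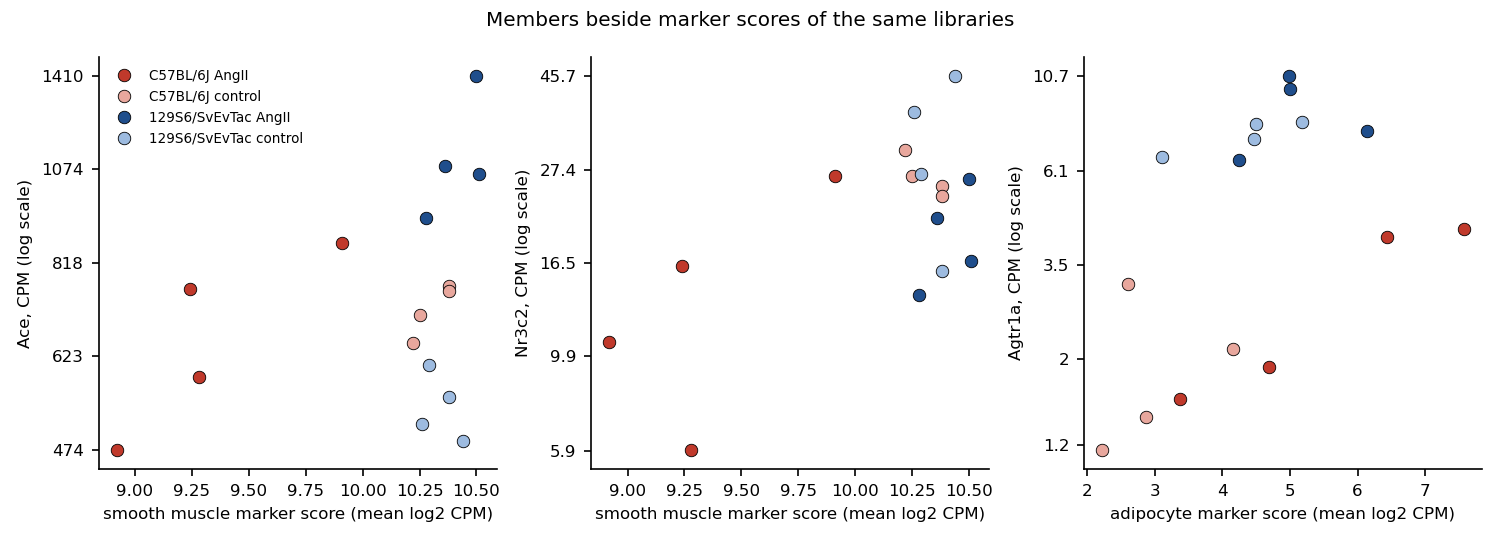
Ace and Nr3c2 against the smooth muscle marker score and Agtr1a against the adipocyte marker score (mean log2 CPM) in the 16 libraries, with CPM on a log scale. The C57BL/6J AngII libraries lie between 8.92 and 9.91 on the smooth muscle score, below the other libraries.

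Angiotensinogen was sparse and uneven in the aorta. Agt (chr8:124556534-124569706, minus strand, ENSMUSG00000031980.9), the sole precursor of all angiotensins, had 81, 26, 15 and 76 counts in C57BL/6J AngII libraries, against 3, 7, 5 and 27 counts in C57BL/6J controls. After scaling, the highest control (0.5429 CPM) exceeded 1 of the AngII libraries (0.2569 CPM). The fitted log2 fold change was 2.14 (SE 0.82) and missed the threshold (adjusted p = 0.05147). It passed in 8 of 30 alternatives, among them DESeq2 (adjusted p = 0.01912). In 129S6/SvEvTac, Agt had 31, 7, 61 and 308 counts in AngII libraries, against 44, 71, 100 and 37 counts in controls, a log2 fold change of -0.08 with a 95% interval of -1.70 to 1.53. The 308 counts were in the deepest library, where they made 2.69 CPM, and that library also had the highest skeletal and cardiac muscle score of the 16 (3.49) and the highest adipocyte score of its group (6.14). Over the 16 libraries, which carry the group differences too, Agt correlated with the muscle score at r = 0.59 and with the adrenal cortex and kidney score at 0.74. After the group means were taken out, r was 0.45 with the muscle score and 0.45 with the adrenal cortex and kidney score. It was then 0.61 with the macrophage score and 0.64 with the nerve and Schwann cell score. The AngII effects on Agt did not differ past the threshold (2.22, adjusted p = 0.227).

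Among controls, Agt averaged 0.211 ± 0.225 CPM in C57BL/6J and 1.31 ± 0.571 CPM in 129S6/SvEvTac, with no overlap. The log2 fold change of -2.64 (95% interval -4.41 to -0.86) missed the threshold (adjusted p = 0.05689). It passed in 11 of 30 alternatives, and its sign was the same in all 30. With AngII the strains overlapped, with 0.931 ± 0.631 CPM in C57BL/6J and 1.23 ± 1.08 CPM in 129S6/SvEvTac. Of the C57BL/6J AngII libraries, numbers 1 and 5 had the most Agt and the highest adipocyte and macrophage scores. In a fit that included the adipocyte score, the C57BL/6J AngII log2 fold change of Agt was 0.85 (adjusted p = 0.6538), and with the smooth muscle score it was -0.74 (adjusted p = 0.8248). Because the smooth muscle score separates C57BL/6J AngII from the other groups, that covariate and the group cannot be told apart. No immune score was fitted, and the part of immune cells in the Agt counts was not tested.

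Both type 1 receptor genes were lower in C57BL/6J than in 129S6/SvEvTac control aortas. Agtr1a (chr13:30336441-30382867, plus strand, ENSMUSG00000049115.15), the main vascular type 1 receptor of the mouse, had 2.128, 1.424, 3.127 and 1.166 CPM in C57BL/6J controls, against 8.049, 8.146, 6.625 and 7.365 CPM in 129S6/SvEvTac controls. The lowest 129S6/SvEvTac control was above 2 times the highest C57BL/6J control. The log2 fold change was -1.94 (SE 0.35, adjusted p = 0.001482). With AngII, Agtr1a had 4.323, 1.905, 1.576 and 4.115 CPM in C57BL/6J, against 9.903, 6.488, 10.69 and 7.729 CPM in 129S6/SvEvTac. The strains again did not overlap, and the log2 fold change was -1.54 (SE 0.34, adjusted p = 0.002897). Both calls held in each of 30 alternatives, with log2 fold changes of -2.26 to -1.55 among controls and -2.99 to -1.31 with AngII.

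Agtr1b (chr3:20314473-20367177, minus strand, ENSMUSG00000054988.9), the paralog best known from the adrenal gland, had 1.005, 1.057, 0.8019 and 0.9451 CPM in C57BL/6J controls, against 2.555, 1.9, 2.848 and 1.353 CPM in 129S6/SvEvTac controls. The groups did not overlap, and the log2 fold change was -1.18 (SE 0.30, adjusted p = 0.01721). The call was lost without C57BL/6J control 3 (adjusted p = 0.05433) or 129S6/SvEvTac control 3 (adjusted p = 0.05884), and with the skeletal and cardiac muscle score as a covariate (adjusted p = 0.06566). With AngII, Agtr1b had 2.011, 1.711, 1.25 and 1.109 CPM in C57BL/6J, against 3.451, 1.868, 2.174 and 1.729 CPM in 129S6/SvEvTac. These overlapped, and the log2 fold change of -0.60 did not pass (adjusted p = 0.1353). The open reading frames of the paralogs, 1080 bases each in the GENCODE transcripts, were identical at 90.8% of bases, and the longest identical run between their transcripts was 66 bases. Whether reads of 1 paralog were counted for the other was not tested. Across all 16 libraries the log2 CPM of Agtr1a and Agtr1b correlated at r = 0.73, and their deviations from the group means at r = 0.06.

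Neither type 1 receptor passed the test for an AngII effect in either strain. In C57BL/6J, the 4 AngII libraries of Agtr1b all lay above the 4 controls, with a log2 fold change of 0.67 (95% interval 0.04 to 1.30, adjusted p = 0.0853). For Agtr1a in C57BL/6J the log2 fold change was 0.60 (95% interval -0.12 to 1.33, adjusted p = 0.1787). Its higher pair of AngII libraries, 1 and 5, were those with the highest adipocyte scores, and a fit that included this score gave a log2 fold change of -0.26. In 129S6/SvEvTac the log2 fold changes were 0.21 for Agtr1a (95% interval -0.50 to 0.91) and 0.09 for Agtr1b (95% interval -0.53 to 0.71). Intervals of this width leave room for changes of up to 2.51-fold for Agtr1a in C57BL/6J and 1.88-fold in 129S6/SvEvTac.

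Agtrap (chr4:148077061-148088031, minus strand, ENSMUSG00000029007.8), the protein that draws the type 1 receptor into the cell, ran opposite to the receptors between strains. Among controls it had 65.66, 61.74, 66.73 and 66.82 CPM in C57BL/6J, against 43.05, 40.16, 41.78 and 39.86 CPM in 129S6/SvEvTac. It was 1.58-fold higher in C57BL/6J controls, without overlap (log2 fold change 0.66, SE 0.09, adjusted p = 1.48e-04), and the call held in all 30 alternatives. None of these changed the alignment, which used GRCm38 for both strains, and its part in the strain differences was not tested. With AngII, Agtrap had 55.38, 46.49, 51.14 and 66.85 CPM in C57BL/6J, against 36.93, 35.01, 36.89 and 39.65 CPM in 129S6/SvEvTac. It was again higher in every C57BL/6J library (log2 fold change 0.57, SE 0.09, adjusted p = 2.70e-04), and the call held in 29 of 30 alternatives, the exception being the smooth muscle covariate. That covariate cannot be told apart from the C57BL/6J AngII group.

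In C57BL/6J, Agtrap fell by 0.25 on the log2 scale with AngII (SE 0.09, adjusted p = 0.04234), with AngII library 5 (66.85 CPM) above all controls. This call held in 12 of 30 alternatives and was lost in 12 of the 16 that left out 1 library, the adjusted p then reaching 0.162. Without C57BL/6J AngII 2, the lowest library, the log2 fold change was -0.17 (adjusted p = 0.1615). In 129S6/SvEvTac every AngII library lay below every control, by a log2 fold change of -0.15 (95% interval -0.34 to 0.04), which did not pass (adjusted p = 0.3289). The log2 ratio of Agtr1a to Agtrap within a library averaged -5.13 ± 0.60 in C57BL/6J controls and -2.45 ± 0.15 in 129S6/SvEvTac controls. With AngII it averaged -4.31 ± 0.59 in C57BL/6J and -2.11 ± 0.32 in 129S6/SvEvTac. Neither comparison overlapped, but both reached only the smallest p that 4 against 4 libraries allow in an exact two-sided permutation test (0.02857, adjusted over 12 ratio comparisons 0.08571).

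Agtr2, the type 2 receptor, was close to undetected in control aortas and was counted in every AngII library of both strains. Agtr2 (chrX:21484544-21489164, plus strand, ENSMUSG00000068122.10) had 19, 23, 15 and 45 counts in C57BL/6J AngII libraries, against 7, 5, 0 and 0 counts in C57BL/6J controls. The 129S6/SvEvTac libraries had 25, 5, 13 and 23 counts in AngII libraries, against 3, 0, 0 and 0 counts in controls. In both strains the groups did not overlap. The summed counts, 102 against 12 in C57BL/6J, gave a ratio of 8.17 after scaling (95% interval 4.48 to 16.3, counting error only). In 129S6/SvEvTac the sums of 66 against 3 counts gave a ratio of 17.1 (95% interval 5.61 to 85.2, counting error only). A library with no count allows up to 3 counts.

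In the filtered table both Agtr2 increases passed the test over libraries, with a fitted fold of 8.02 in C57BL/6J (95% interval 1.81 to 35.4, adjusted p = 0.02766) and 15.95 in 129S6/SvEvTac (95% interval 2.83 to 89.9, adjusted p = 0.03665). Agtr2 passed the filter on low counts only through its AngII libraries, and with no filter neither call held (adjusted p = 0.05507 in C57BL/6J and 0.0655 in 129S6/SvEvTac). The C57BL/6J call held in 20 of the 29 alternatives that tested Agtr2 and the 129S6/SvEvTac call in 15 of 28. With 1 library left out, the C57BL/6J call was lost in the fits without C57BL/6J AngII 2 or 5 or C57BL/6J control 3 or 5, with adjusted p between 0.05169 and 0.07729. The 129S6/SvEvTac call was lost in 7 of those 16 fits: without 129S6/SvEvTac AngII 1, 4 or 5, 129S6/SvEvTac control 2, 3 or 4, or C57BL/6J AngII 5, where the adjusted p reached 0.109. The adipocyte and the endothelial score as covariates each ended both calls, and the replicate block ended that in 129S6/SvEvTac (adjusted p = 0.06934). The log2 fold change stayed between 1.39 and 3.71 in C57BL/6J and between 3.46 and 6.98 in 129S6/SvEvTac over all alternatives. With the smooth muscle score as a covariate it was 1.39 in C57BL/6J (adjusted p = 0.676), a fit in which covariate and C57BL/6J AngII group cannot be told apart. The AngII effects on Agtr2 differed between strains by -0.99 (95% interval -4.07 to 2.08), too wide an interval to order them.

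Nr3c2 (chr8:76899442-77245012, plus strand, ENSMUSG00000031618.13), the mineralocorticoid receptor, had 10.68, 5.933, 26.41 and 16.21 CPM in C57BL/6J AngII libraries, against 26.39, 30.42, 25.04 and 23.73 CPM in C57BL/6J controls. AngII libraries 1, 2 and 5 lay below all controls and library 3 among them. The log2 fold change was -0.83 (95% interval -1.63 to -0.03) and did not pass (adjusted p = 0.09405). Without library 3 it was -1.25 (adjusted p = 0.01166). Library 3 had the highest smooth muscle score of its group, and with that score as a covariate the log2 fold change was 0.32 (adjusted p = 0.8). As for Ace, the score separates C57BL/6J AngII from the other groups, so covariate and group cannot be told apart. In 129S6/SvEvTac, Nr3c2 had 21, 26.08, 16.69 and 13.86 CPM in AngII libraries, against 26.81, 37.51, 15.78 and 45.7 CPM in controls. The groups overlapped, with a fold of 0.616 (95% interval 0.354 to 1.07, adjusted p = 0.2651). The strains did not differ past the threshold among controls (log2 fold change -0.25) or with AngII (-0.39). Nr3c2 shares 3.8% of its exon length with the opposite-strand transcript Gm10649, which had at most 14 counts in a library.

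Set against the whole table, AngII called 2 of the 7 members in C57BL/6J (Agtr2 higher, Agtrap lower), where 38.9% of tested genes were called (21.8% higher and 17.1% lower), so the members were called no more often than other genes. For AngII in 129S6/SvEvTac 2 of 7 were called (Ace and Agtr2, both higher), where 12.2% of genes were called (7.71% higher and 4.47% lower). Agtr2 entered both of these counts through a filter that it passed only on its AngII libraries. With no filter its call held in neither strain. Among controls, 3 of 7 members differed between strains (Agtrap higher, Agtr1a and Agtr1b lower in C57BL/6J), where 10.4% of genes were called (5.35% higher and 5.06% lower). With AngII, 3 of 7 differed (Agtrap higher, Agtr1a and Ace lower in C57BL/6J), where 31.3% were called (16.8% higher and 14.6% lower). The median log2 fold change of the 7 was 0.60 for AngII in C57BL/6J, 0.09 for AngII in 129S6/SvEvTac, -0.25 between strains in controls and -0.41 between strains with AngII. Over all tested genes these medians were 0.009, 0.003, -0.001 and 0.020. Groups whose libraries did not overlap were common over all tested genes, at 35.2% for AngII in C57BL/6J and 23% for AngII in 129S6/SvEvTac. Between strains the share was 22.3% in controls and 27% with AngII. The comparisons share groups of libraries and are not independent of each other.

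**Figure D4:**
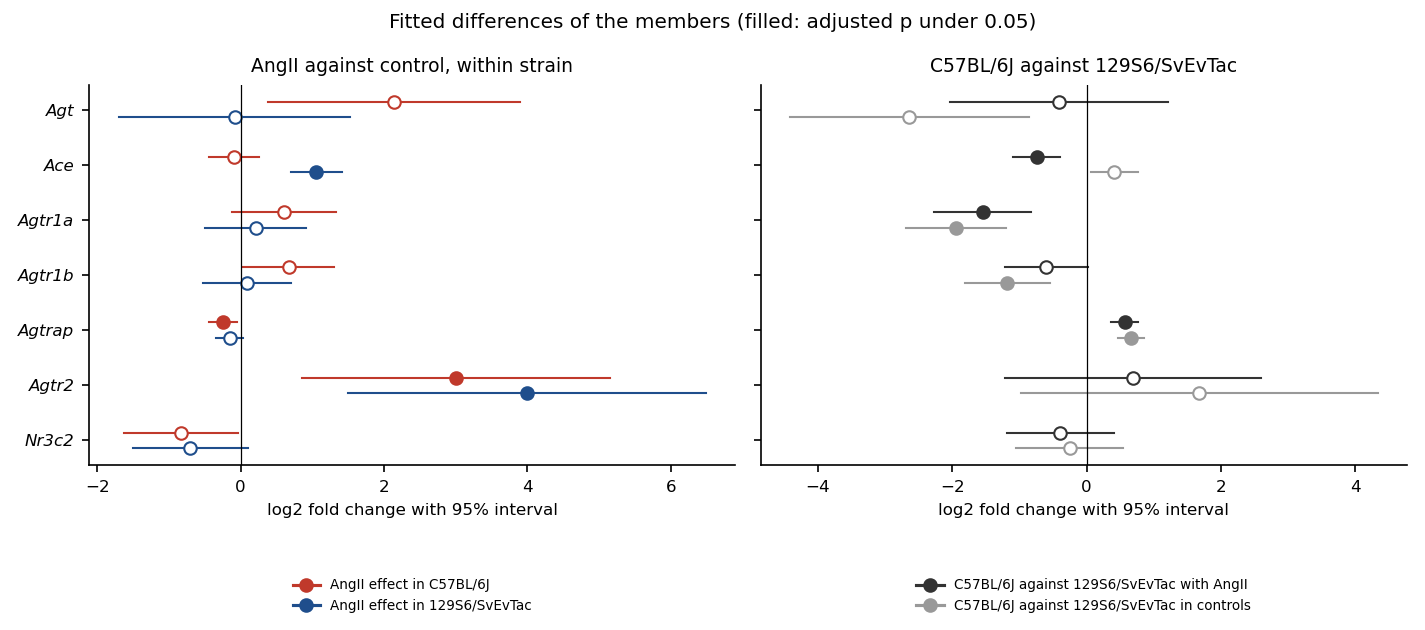
Fitted log2 fold changes of the members with 95% intervals, for AngII against control in each strain (left) and for C57BL/6J against 129S6/SvEvTac with AngII and in controls (right); filled points have an adjusted p under 0.05. Ace lies at 1.05 for AngII in 129S6/SvEvTac and at -0.09 in C57BL/6J.

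Genes that act beside the members were read from 4 lists. Renin, the enzyme that acts before ACE, was at the edge of detection. Ren1 had 69, 64, 36 and 134 counts in C57BL/6J AngII libraries, against 13, 0, 13 and 11 counts in C57BL/6J controls, without overlap (log2 fold change 2.99, adjusted p = 0.05385). The counts in 129S6/SvEvTac were 35, 0, 18 and 91 counts in AngII libraries, against 16, 10, 0 and 0 counts in controls (log2 fold change 1.85, adjusted p = 0.3467). Mice of 129 strains are known to carry an additional renin gene that the reference genome lacks, so Ren1 counts of the strains are uncertain beside each other. Mas1, a receptor for another angiotensin peptide, fell below the filter, with at most 7 counts in a library.

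Of 20 genes for angiotensin processing and other receptors, 16 were tested, and AngII raised 11 and lowered 0 in C57BL/6J, where 21.8% of all tested genes rose and 17.1% fell, with a median log2 fold change of 1.10. AngII raised 3 in 129S6/SvEvTac (Prep, Rnpep and Ctsd) and lowered 0, where 7.71% of all tested genes rose and 4.47% fell, with a median of 0.16. The medians over all tested genes were 0.009 and 0.003. The Prep, Rnpep and Ctsd calls held in 13, 6 and 5 of the 16 fits that left out 1 library. Enpep, the aminopeptidase that trims angiotensin II to angiotensin III, averaged 51.2 CPM in C57BL/6J AngII libraries and 23 CPM in C57BL/6J controls, a log2 fold change of 1.16. Its mean was 66.8 CPM in 129S6/SvEvTac AngII libraries and 56.2 CPM in 129S6/SvEvTac controls, and the effects differed by 0.91 (adjusted p = 0.01018). It was 2.45-fold lower in C57BL/6J than in 129S6/SvEvTac controls (adjusted p under the threshold in all 30 alternatives). Nln (neurolysin) and Prcp, peptidases that cut angiotensins, rose with AngII in C57BL/6J by 1.05 and 0.78 on the log2 scale. Each call held in 29 of 30 alternatives. Where lost, the adjusted p was 0.126 for Nln and 0.619 for Prcp. Of the 11 that rose in C57BL/6J, Cma1, Mcpt4 and Cpa3 are mast cell proteases that are also on the mast cell marker list. The mast cell score was 0.02 to 2.84 in C57BL/6J AngII libraries, against -1.08 to 0.56 in C57BL/6J controls, and its part in the count was not tested.

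Of 22 genes of type 1 receptor coupling and desensitisation, all tested, AngII raised 7 and lowered 6 in C57BL/6J and raised 3 and lowered 1 in 129S6/SvEvTac. Of all tested genes 38.9% were called in C57BL/6J and 12.2% in 129S6/SvEvTac, and the 4 calls of 22 in 129S6/SvEvTac lie near that share. Rcan1, a calcineurin target known to follow calcium signalling, averaged 258.1 CPM in C57BL/6J AngII libraries and 57.2 CPM in C57BL/6J controls, against 108.4 CPM in 129S6/SvEvTac AngII libraries and 50.2 CPM in 129S6/SvEvTac controls. It rose in both, by 2.17 and 1.11 on the log2 scale (adjusted p = 0.01378 in 129S6/SvEvTac), and the difference of these effects did not pass (1.06, adjusted p = 0.08775). Ptk2b, the calcium-dependent tyrosine kinase PYK2, rose by 1.71 in C57BL/6J and 0.57 in 129S6/SvEvTac, and the effects differed by 1.14 (adjusted p = 0.009442). Grk5, a kinase that desensitises receptors, rose in 129S6/SvEvTac by 0.72 (99.6 CPM in AngII libraries, 60.3 CPM in controls, adjusted p = 0.00504). Plcb1, a phospholipase that Gq activates, was lower in C57BL/6J than in 129S6/SvEvTac with AngII (-0.91) and in controls (-0.46).

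Of 10 type 2 receptor partners and kinin genes, AngII raised 2 and lowered 2 in C57BL/6J and raised 1 and lowered 1 in 129S6/SvEvTac, against 38.9% and 12.2% called over all tested genes. Bdkrb2, the bradykinin receptor whose ligand ACE degrades, fell in both strains, with means of 3.42 CPM in C57BL/6J AngII libraries and 9.1 CPM in C57BL/6J controls, and means of 1.96 CPM in 129S6/SvEvTac AngII libraries and 5.07 CPM in 129S6/SvEvTac controls. Its log2 fold changes were -1.41 and -1.36. Zbtb16, the zinc finger protein PLZF that binds the type 2 receptor and is also a glucocorticoid target, averaged 218.3 CPM in 129S6/SvEvTac AngII libraries and 54.5 CPM in 129S6/SvEvTac controls (log2 fold change 2.00, adjusted p = 0.006977). In C57BL/6J it averaged 72.6 CPM in AngII libraries and 87.4 CPM in controls, and the effects differed by -2.27 (adjusted p = 0.02578), a call that held in 10 of the 16 fits that left out 1 library. Ptpn6, the phosphatase SHP-1, averaged 19.2 CPM in C57BL/6J AngII libraries and 4.13 CPM in C57BL/6J controls. It is abundant in blood cells, and the macrophage score was 6.14 to 7.04 in the same C57BL/6J AngII libraries, against 4.82 to 5.08 in C57BL/6J controls; its part in the Ptpn6 result was not tested.

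Of 22 corticosteroid receptors, enzymes and target genes, 17 were tested, and AngII raised 8 and lowered 2 in C57BL/6J and raised 4 and lowered 0 in 129S6/SvEvTac, where 21.8% and 7.71% of all tested genes rose. Pgf (placental growth factor), a target of the mineralocorticoid receptor in vessels, averaged 22.6 CPM in C57BL/6J AngII libraries and 4.75 CPM in C57BL/6J controls. The 129S6/SvEvTac means were 21.5 CPM with AngII and 4.36 CPM in controls. It rose in both, by 2.25 and 2.30 on the log2 scale (adjusted p = 6.30e-04 in 129S6/SvEvTac). Fkbp5, a chaperone partner of steroid receptors that glucocorticoids induce, rose in 129S6/SvEvTac by 2.04 on the log2 scale (159.2 CPM in AngII libraries, 38.6 CPM in controls, adjusted p = 9.96e-04). In C57BL/6J it averaged 75.1 CPM in AngII libraries and 45 CPM in controls and did not pass (adjusted p = 0.07627), and the difference of effects on Fkbp5 missed the threshold too (-1.30, adjusted p = 0.0774). The glucocorticoid receptor Nr3c1 and the kinase Sgk1 did not pass in any comparison, and Hsd11b2, the enzyme that shields Nr3c2 from glucocorticoids, had at most 30 counts in a library.

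**Figure D5:**
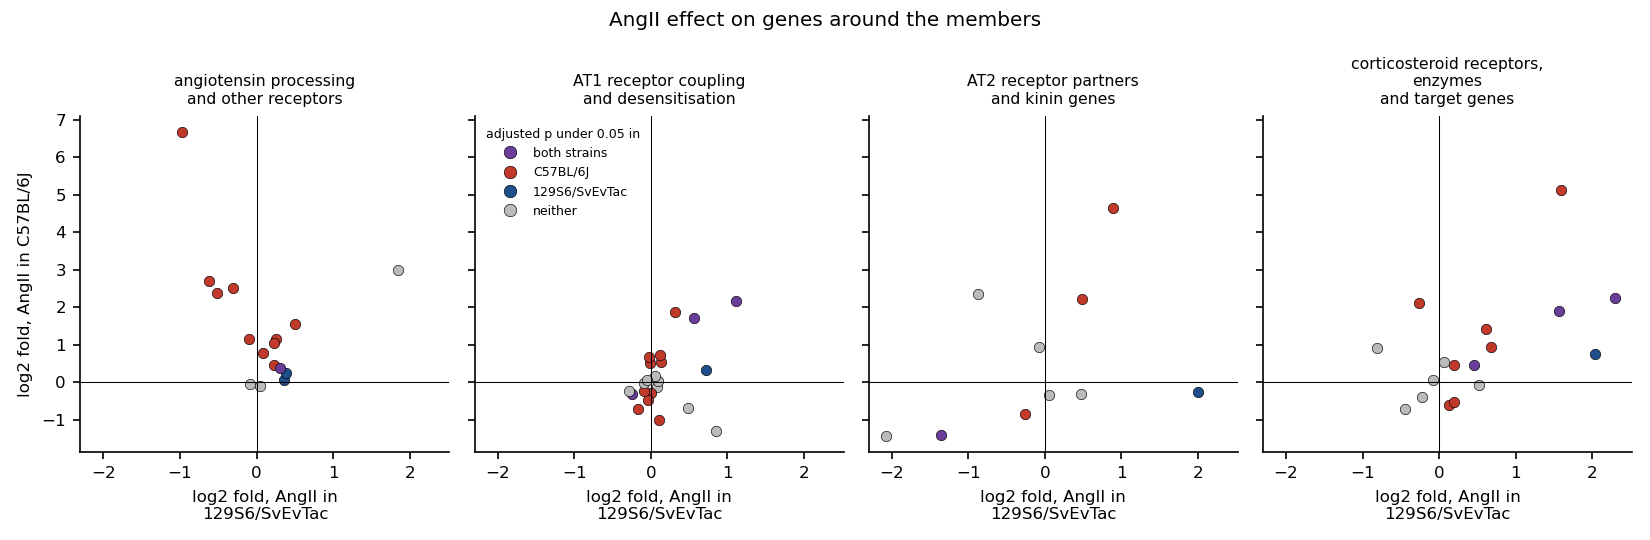
Fitted log2 fold changes with AngII in C57BL/6J (vertical) against 129S6/SvEvTac (horizontal) for the tested genes of 4 lists, coloured by the strain in which the adjusted p was under 0.05. In the angiotensin processing list 11 genes rose in C57BL/6J and 3 in 129S6/SvEvTac.

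The genes most like each member were named by the highest Pearson r of log2 CPM over the 16 libraries, as a description that also carries the group differences. For Ace these were Igfbp7 (r = 0.896), Col4a4 (0.893) and Angptl7 (0.886). For Agtr1a they were Fah (0.965), Gbp2b (0.958) and Bend6 (0.954), and for Agtrap Ankrd35 (0.958) and Polr2k (0.952). Agtr1b was most like Tspoap1 (0.892), Agtr2 most like Plxna1 (0.949), Agt most like Mal2 (0.874) and Nr3c2 most like Lrch2 (0.889). After the group means were taken out, r was 0.880 for Ace with Col4a4, which encodes a basement membrane collagen chain, and 0.523 for Ace with Igfbp7. It was 0.892 for Agtr1a with Fah and 0.292 for Agtrap with Polr2k.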

How the data were processed

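The authors deposited expected counts per gene in whole numbers, made from total RNA of whole descending thoracic aorta: per the labels' protocols, reads were aligned to GRCm38 with HISAT2 and transcript abundance was estimated with StringTie against a Gencode annotation. The submitters' processing notes name DESeq2 1.26.0 and R 3.6.2 without saying what for. Strandedness and the Gencode release were not given in the sources used here. Symbols, positions and exon lengths came from GENCODE M21, which matched 52489 of 52636 genes. The other 147 held 0.033 to 0.0431% of each library's counts.

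Counts were tested with edgeR 4.0.16 in R 4.3.3: a filter with a minimum count of 10, TMM scaling and a robust quasi-likelihood fit with 1 mean per group over all 16 libraries. A Benjamini-Hochberg adjusted p under 0.05 over 17125 genes made a call. CPM values use the TMM-scaled totals. The prior count on the log2 CPM scale was 2. Standard errors came from the fold change and its F statistic. Marker scores are the mean log2 CPM of a list. Ratios were compared by exact permutation tests. Intervals of summed counts are exact binomial intervals at 95%, which take the expected counts as independent counts. Like the floor of 3 counts, they cover counting error only. The fit was tested on simulated data. Replicates differed by at least 40.92 in chi-square per degree of freedom.

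The members, lists and tests were chosen with earlier results of these data known. All members and a panel (Ren1, Mas1, Hsd11b2, Nr3c1, Sgk1) were named in every comparison, with up to 3 called genes per list by p and the 3 genes most like each member; some results are not reported here. Bdkrb2 in C57BL/6J was added after its values were seen. Alternatives were RLE scaling, library size only, other filters, DESeq2 1.42.0, voom with sample weights (limma 3.58.1), only the groups compared, a replicate block, 4 marker scores as covariates, a prior count of 0.5 and each library left out. All of them used the deposited counts, so the part of the alignment in strain differences was not tested. Leaving out C57BL/6J AngII 1 with 129S6/SvEvTac AngII 5, or C57BL/6J AngII 1 with 5, was chosen after seeing the data.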

Additional observations from a re-analysis of the deposited data

Results flagged for a closer look

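The AngII effect differed between strains, by an interaction term in the same edgeR fit, for 1 of the 7 members. It differed for 6 of 16 tested genes of angiotensin processing, 6 of 22 of type 1 receptor signalling, 3 of 10 of the type 2 receptor and kinin list and 3 of 17 corticosteroid genes, where 9.96% of all tested genes were called. The values below are for the 3 genes of each list with the lowest p. The differences are log2, C57BL/6J minus 129S6/SvEvTac. The member was Ace, at -1.15 (adjusted p = 0.008294). Among peptidases that cut angiotensins the differences were 0.91 for Enpep, 0.82 for Nln and 0.69 for Prcp. Among genes of type 1 receptor signalling they were 1.14 for Ptk2b, 0.41 for Gna13 and 0.53 for Arap1. Among type 2 receptor partners and kinin genes they were 1.74 for Ptpn6, -2.27 for Zbtb16 and 3.77 for Kng2. Among corticosteroid genes they were 2.36 for Star, 3.53 for Lcn2 and -0.72 for Klf9. Their adjusted p-values ran from 0.004488 for Star to 0.04341 for Klf9. With 1 library left out, the calls for Ace, Enpep, Nln, Ptk2b and Star held in all 16 fits, that for Gna13 in 14, those for Prcp and Ptpn6 in 12 and that for Zbtb16 in 10. The other calls held in fewer: 6 of 16 for Kng2, 5 for Arap1, 4 for Lcn2 and 3 for Klf9, which was 0.01 with the smooth muscle score as a covariate. Over all alternatives, the calls for Ace, Enpep, Nln, Ptk2b and Star held in 28 of 29. Where lost, the adjusted p was 0.653 for Ace (smooth muscle score), 0.612 for Enpep, 0.741 for Nln, 0.198 for Ptk2b and 0.235 for Star. The lowest difference over the alternatives was 0.05 for Prcp and Ptpn6 and 0.03 for Arap1.

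In 4 of 48 sets of 4 libraries checked, 1 library stood apart from the other 3. Chance alone flags about 1 set in 20 where values are normally distributed, and this rate does not hold for counts near 0. For Agtr2, 129S6/SvEvTac control 1 had 0.06783 CPM and the other controls of that strain 0. For Ren1, C57BL/6J control 2 had 0 CPM and the others 0.2178 to 0.2606 CPM. For Mas1, 129S6/SvEvTac control 3 had 0.0633 CPM and the others 0. For Nr3c1, 129S6/SvEvTac control 1 had 138.4 CPM and the others 238.6 to 255.3 CPM. The Agtr2 and Mas1 values are 3 counts each, and beside 3 libraries at 0 any count would have been flagged. The other C57BL/6J controls had 11 to 13 Ren1 counts.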

How the results depend on the processing

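Of 3106 single-gene values recomputed, 2765 kept their direction and their side of the threshold, 233 lost a call, 38 gained one and 70 changed sign, none of these 70 with a call under the alternative. Among the members, the calls that held in all 30 alternatives were Ace with AngII in 129S6/SvEvTac, Agtr1a between strains in controls and with AngII, and Agtrap between strains in controls.

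Counts of members called, of 7, moved as follows. For AngII in C57BL/6J (2), 1 was called under RLE scaling, with only the groups compared, with the adipocyte or endothelial score as a covariate and with either pair of libraries left out. There 0 were called with no filter and with the smooth muscle score. For AngII in 129S6/SvEvTac (2), 1 was called with no filter, with the filter of 1 CPM or only the groups compared (Agtr2 was tested under neither), with the replicate block, with the adipocyte or endothelial score and with either pair left out. Between strains in controls (3), 5 were called under voom with sample weights, with only the groups compared and with the smooth muscle score. With that score the difference of effects called 0 and the strains with AngII 1. Leaving out 1 library gave 0 to 3 members for AngII in C57BL/6J and 1 to 2 in 129S6/SvEvTac.

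Counts over all genes moved by over 1.5 times as follows. The smooth muscle score left 1758 of 6664 for AngII in C57BL/6J, 132 of 1706 for the difference of effects and 1487 of 5367 for the strains with AngII. In all of these fits, the score and the C57BL/6J AngII group cannot be told apart. Voom called 3324 against 2087 for AngII in 129S6/SvEvTac, 2670 for the difference and 3209 against 1783 for the strains in controls. DESeq2 called 2685 for the difference, and only the groups compared gave 2772 for the strains in controls. The endothelial score left 1269 for AngII in 129S6/SvEvTac, and the adipocyte score left 1091 for the difference. The difference had 1049 calls without C57BL/6J AngII 1 and 129S6/SvEvTac AngII 5, 1027 without C57BL/6J AngII 1 and 5, and 1039 to 2990 with 1 library left out (without 129S6/SvEvTac control 2 and without C57BL/6J AngII 3).

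With library size as the only scaling, the median of all genes was -0.157 for AngII in 129S6/SvEvTac and -0.080 in C57BL/6J. The share of calls that were higher was then 25.2% (63.3% in the TMM fit) in 129S6/SvEvTac, 45.4% (56.1%) in C57BL/6J and 65.2% (53.6%) for the difference. Under it Agtr1b and Sgk1 with AngII in 129S6/SvEvTac were -0.07 and -0.11, and Agtrap there was -0.31 (adjusted p = 0.0446).

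The main fit took the libraries as unpaired. Correlations of same-numbered deviations ran from -0.06 to 0.15, low values that cannot show whether the replicate numbers pair the libraries. The replicate block called 6175, 1426, 1590, 1383 and 4459 genes (AngII in C57BL/6J, AngII in 129S6/SvEvTac, their difference, strains in controls, strains with AngII). Agt in the strains with AngII was 0.01 under the block.

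Values that changed sign follow, none of them called before or after except Ace and Klf9. For AngII in C57BL/6J, the adipocyte score gave -0.26 for Agtr1a, 0.23 for Ace and -0.78 for Hsd11b2. The endothelial score gave -2.65 for Hsd11b2. The smooth muscle score gave -0.71 for Agtr1a, 0.66 for Ace, -0.74 for Agt, 0.32 for Nr3c2 and -1.48 for Hsd11b2. Leaving out C57BL/6J AngII 1 and 5 gave -0.19 for Agtr1a, 0.00 for Ace and -1.25 for Hsd11b2, and leaving out C57BL/6J AngII 1 with 129S6/SvEvTac AngII 5 gave 0.05 for Ace. For AngII in 129S6/SvEvTac, the adipocyte score gave -0.02 for Agtr1a, the skeletal and cardiac muscle score -0.03 for Sgk1 and the smooth muscle score -0.07 for Sgk1.

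For the difference of effects, the adipocyte score gave -0.24 for Agtr1a and 0.07 for Nr3c2, and leaving out C57BL/6J AngII 1 and 5 gave -0.38 for Agtr1a and -0.40 for Hsd11b2. The smooth muscle score gave -1.01 for Agtr1a, -0.12 for Agtr1b, -0.72 for Agt, 1.12 for Nr3c2, -1.26 for Ren1, -0.86 for Hsd11b2, 0.19 for Nr3c1 and 0.01 for Klf9. For the strains in controls, Hsd11b2 was 0.76 with the adipocyte and 0.63 with the endothelial score. For the strains with AngII, the smooth muscle score gave -1.15 for Agtr2, 0.11 for Ace, 0.93 for Nr3c2, -0.84 for Ren1, -1.06 for Hsd11b2 and 0.22 for Nr3c1. The skeletal and cardiac muscle score gave 0.12 for Agt there, and leaving out C57BL/6J AngII 1 and 5 gave -0.63 for Hsd11b2. The cause of these changes was not tested, and the smooth muscle score cannot be told apart from the C57BL/6J AngII group.

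With 1 library left out, the log2 values that crossed 0 ranged as follows. For AngII in C57BL/6J, Ace ran from -0.23 to 0.05 and Hsd11b2 from -0.08 to 1.83. For AngII in 129S6/SvEvTac, Agtr1b ran from -0.19 to 0.25, Agt from -0.84 to 0.26, Hsd11b2 from -1.61 to 0.10 and Sgk1 from -0.11 to 0.20. For the difference, Nr3c2 ran from -0.53 to 0.15 and Nr3c1 from -0.28 to 0.04. For the strains in controls, Ren1 ran from -0.06 to 1.40, Hsd11b2 from -1.16 to 0.71 and Nr3c1 from -0.16 to 0.09. For the strains with AngII, Agt ran from -0.79 to 0.35 and Nr3c1 from -0.27 to 0.05. None of the 12 ratio comparisons passed with a prior count of 2 or 0.5.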

Other observations

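The log2 ratio of Nr3c2 to Nr3c1, the pair of corticosteroid receptors, was -3.64 ± 0.45 in C57BL/6J AngII libraries and -3.08 ± 0.11 in C57BL/6J controls (SD, n = 4 each, prior count 2, exact permutation p = 0.1143). In 129S6/SvEvTac it was -3.33 ± 0.39 in AngII libraries and -2.87 ± 0.71 in controls (exact permutation p = 0.2857).

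Low counts limited Agtr2, Agt, Ren1, Mas1 and Hsd11b2, each of which had libraries with under 10 counts. Lrp2, listed as a kidney marker, averaged 0.0653 CPM in C57BL/6J AngII libraries and 1.13 CPM in 129S6/SvEvTac AngII libraries, and 0.0451 CPM in C57BL/6J and 1.24 CPM in 129S6/SvEvTac controls. It lies in the adrenal and kidney score, whose r with Agtr1b over the 16 libraries was 0.87, with both carrying the strain difference. After the group means were taken out, that r was 0.68, and its cause was not tested.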
